A study of Mus musculus with 8 samples.

Results

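Contacts between places 100 kb to 2 Mb apart on one chromosome were taken from RNA polymerase II (Pol II) ChIA-PET of mouse liver. In ChIA-PET, an antibody recovers crosslinked chromatin, DNA ends of a complex are ligated to each other by way of linkers, and both sides of the junction are sequenced as a paired-end tag (PET). A member is a nuclear PET with both ends on the same chromosome and over 100 kb up to 2 Mb between their positions. There were 5400 members among 2753554 PETs, against 3075 PETs at 8 to 100 kb and 15461 at 2 to 10 Mb.

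Livers came from wild-type C57BL/6 mice aged 3 to 6 months, kept in 12 hours of light and 12 of dark with free access to food. They were collected at ZT06, by day, or at ZT18, by night, where ZT counts hours from lights on. The antibody was 8WG16, against Pol II, and chromatin of 3 to 7 livers was pooled. Experiment 1 had 4 libraries, 2 at each time, and experiments 2 and 3 had 2 each, 1 at each time. All were fixed with 1% formaldehyde, and experiments 1 and 3 also with 1.5 mM EGS, a longer crosslinker that joins proteins. The table does not say which library or time a PET came from, so day and night were not compared, and each value below belongs to an experiment with its day and night libraries together. Intervals are 95%, cover counting error only, and say nothing of the spread between animals.

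Active genes and their enhancers in liver chromatin lie along chromosomes that are folded into domains, often smaller than a megabase. Places within a domain meet more often than chance, and active, gene-dense stretches tend to meet each other. Pol II gathers at promoters and along transcribed genes, so a Pol II antibody enriches contacts whose ends lie there. Ligation in solution also joins ends that were never together, so any observed number has to be set against chance pairing.

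The gene starts that recurred among the members give a view of the DNA at these ends. The 250 bases upstream of 6 starts are printed 5′ to 3′ in the direction of the gene, from RefSeq on GRCm38.p6: Errfi1 (chr4:150854820-150855069, plus strand), Fasn (chr11:120824548-120824797, minus strand), Rps2 (chr17:24719813-24720062, plus), Spsb3 (chr17:24887231-24887480, plus), Zcwpw1 (chr5:137787081-137787330, plus) and Cyp3a13 (chr5:137921620-137921869, minus). Errfi1 and Fasn lead the 2 windows with the smallest p, and the other 4 form the pairs of starts joined by 2 separate PETs each. Capitals mark matches on either strand to GGGCGG (the core of the GC box) and to TATAAA (the TATA box). No E-box of the sequence CACGTG, which BMAL1 and CLOCK bind, lay in these 6 stretches.
Errfi1: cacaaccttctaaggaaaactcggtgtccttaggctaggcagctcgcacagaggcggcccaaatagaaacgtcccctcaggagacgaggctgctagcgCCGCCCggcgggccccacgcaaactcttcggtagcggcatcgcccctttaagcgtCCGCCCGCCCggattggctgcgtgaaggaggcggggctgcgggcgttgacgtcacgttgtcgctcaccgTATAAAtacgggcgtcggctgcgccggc
Fasn: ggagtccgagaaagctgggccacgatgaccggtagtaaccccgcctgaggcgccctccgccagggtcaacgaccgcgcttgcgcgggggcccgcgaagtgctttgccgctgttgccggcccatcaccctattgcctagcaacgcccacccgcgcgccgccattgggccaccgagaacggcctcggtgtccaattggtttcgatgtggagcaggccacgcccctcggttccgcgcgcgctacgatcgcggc
Rps2: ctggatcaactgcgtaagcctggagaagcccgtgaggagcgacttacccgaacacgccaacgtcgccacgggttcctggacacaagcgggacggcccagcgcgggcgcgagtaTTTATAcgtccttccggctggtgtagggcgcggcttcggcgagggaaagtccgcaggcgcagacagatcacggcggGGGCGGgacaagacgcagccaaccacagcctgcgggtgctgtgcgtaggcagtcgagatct
Spsb3: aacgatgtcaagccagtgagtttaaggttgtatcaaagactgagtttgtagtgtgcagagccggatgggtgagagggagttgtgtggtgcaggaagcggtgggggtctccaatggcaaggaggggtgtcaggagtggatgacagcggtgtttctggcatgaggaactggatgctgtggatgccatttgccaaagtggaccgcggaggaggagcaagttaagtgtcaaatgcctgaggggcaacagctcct
Zcwpw1: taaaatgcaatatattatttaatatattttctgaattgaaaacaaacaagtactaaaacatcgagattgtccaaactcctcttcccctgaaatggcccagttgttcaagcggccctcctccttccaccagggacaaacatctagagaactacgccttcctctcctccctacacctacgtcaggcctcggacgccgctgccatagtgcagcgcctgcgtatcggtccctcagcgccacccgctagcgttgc
Cyp3a13: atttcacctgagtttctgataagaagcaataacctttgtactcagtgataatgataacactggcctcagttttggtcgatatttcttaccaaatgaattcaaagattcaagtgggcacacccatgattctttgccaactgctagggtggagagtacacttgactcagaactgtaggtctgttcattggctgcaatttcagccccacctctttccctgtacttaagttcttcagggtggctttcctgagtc
Errfi1 had 3 GC-box matches, Rps2 had 1, and the other 4 had none in these bases. Errfi1 and Rps2 each held 1 TATAAA match. CpG pairs numbered 33 in Fasn, 30 in Errfi1, 29 in Rps2, 13 in Zcwpw1, 6 in Spsb3 and 1 in Cyp3a13. Spsb3 had 4 starts and Errfi1 and Zcwpw1 had 2 each, of which 1 per gene is printed. Among the 527 starts of 385 genes within 2.5 kb of an end in members that joined 2 starts, 58.1% held GGGCGG, against 42.6% of all 21263 starts. TATAAA was in 7.40% of them against 11.6%, CACGTG in 7.40% against 6.63%, and the median number of CpG pairs was 16 against 10. The 21263 starts were not limited to those that hold PET ends, so the differences from all starts cannot be tied to members. Different starts of the same gene were counted separately. A match is a description of these letters and not a bound site.

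Experiment 1 held 814 members, experiment 2 held 2360 and experiment 3 held 2226. These were 0.172%, 0.164% and 0.266% of the nuclear PETs, which numbered 474466, 1438852 and 837971. Experiment 3 thus had the largest share of members. Their median distances were 787, 962 and 592 kb. In experiment 1, 217 members shared a read position with another PET, against 25 in experiment 2 and 110 in experiment 3.

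Each experiment had more members than chance pairing gives. Shuffled partners gave a mean of 559.4 for experiment 1, 2079.4 for experiment 2 and 1128.6 for experiment 3. The ratio of observed to shuffled was 1.46 (1.36 to 1.56), 1.13 (1.09 to 1.18) and 1.97 (1.89 to 2.06). Per 100000 nuclear PETs, the excess came to 53.7, 19.5 and 131 PETs. The formaldehyde-only experiment had the smallest excess, but crosslinking and experiment cannot be told apart, since 1 experiment used formaldehyde alone. The linker subsets gave the same order, at 1.45 and 1.46 in experiment 1, 1.19 and 1.12 in experiment 2, and 1.99 and 1.96 in experiment 3.

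The excess fell with distance. Experiment 1 had a ratio of 4.83 (4.08 to 5.67) at 100 to 200 kb, experiment 2 one of 1.69 (1.46 to 1.95) and experiment 3 one of 7.15 (6.50 to 7.85). At 200 to 500 kb it was 1.68, 1.18 and 3.14, and at 500 kb to 1 Mb it was 1.31, 1.15 and 1.61, with every lower limit above 1. At 1 to 2 Mb only experiment 3 kept a lower limit above 1, with 1.25 (1.16 to 1.34), against 1.11 (0.988 to 1.23) in experiment 1 and 1.05 (0.995 to 1.12) in experiment 2. Of the 1017 members of experiment 3 at 100 to 500 kb, 75.9% were in excess of shuffled partners, against 26.9% of its 1209 members at 500 kb to 2 Mb.

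**Figure D1:**
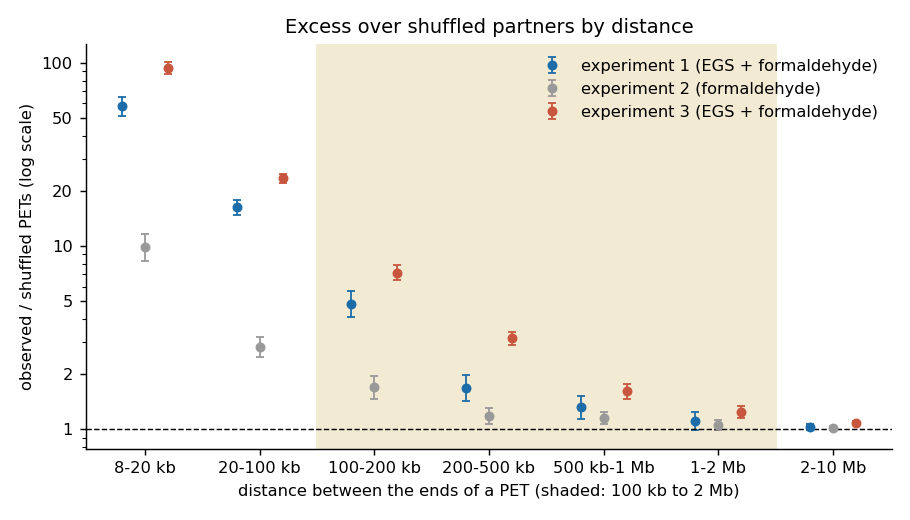
Observed PETs divided by the mean over shuffled partners (log scale) against the distance between the ends, for 3 experiments with exact Poisson 95% intervals. Within the shaded range of 100 kb to 2 Mb the ratio falls from 7.15 to 1.25 in experiment 3 and from 1.69 to 1.05 in experiment 2.

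Gene density around the ends was counted as the protein-coding genes overlapping the 100 kb centred on each end. Among the shuffled pool's ends, 19.7% had 3 or more genes in experiment 1, 14.3% in experiment 2 and 19.0% in experiment 3. Among member ends these shares were 26.9%, 15.7% and 28.5%. Ends with no gene made up 24.1%, 31.5% and 19.5% of member ends, against 31.4%, 34.4% and 28.7% of the pool.

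Members joining 2 gene-dense places were in excess in every experiment. In experiment 1 both ends had 3 or more genes in 132 of 814 members, 16.2% against 9.38% expected from shuffled partners, a fold of 1.73 (adjusted p = 1.32e-09, exact binomial test). In experiment 2 they did in 147 of 2360, 6.23% against 4.38%, a fold of 1.42 (adjusted p = 3.53e-05, exact binomial test). In experiment 3 they did in 350 of 2226, 15.7% against 8.41%, a fold of 1.87 (adjusted p = 1.00e-28, exact binomial test). In experiment 2 the fold was 1.88 at 100 to 500 kb and 1.19 at 500 kb to 2 Mb, where the adjusted p of 0.104 (exact binomial test) did not pass. Nearer and farther PETs bracketed these values: the fold for gene-dense pairs was 2.29, 2.20 and 1.92 at 8 to 100 kb, and 1.28, 1.01 and 1.06 at 2 to 10 Mb, where the difference between distances was not tested.

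Gene-dense pairs stood at 2.51 (2.10 to 2.98), 1.61 (1.36 to 1.90) and 3.69 (3.31 to 4.10) times shuffled partners in experiments 1, 2 and 3. Where neither end had a gene, it was 1.22 (0.989 to 1.49), 1.04 (0.936 to 1.15) and 1.40 (1.19 to 1.63). Pairs of a gene-free with a gene-dense place had the lowest ratio in every experiment, at 0.632 (0.386 to 0.977), 0.842 (0.673 to 1.04) and 1.27 (1.01 to 1.58). In experiment 1 this mixed class was below chance pairing, with 20 members against 31.6.

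PET-end density gave a different picture in the formaldehyde-only experiment when each experiment's own PET ends were counted. Ends were ranked by the nuclear PET ends of their own experiment in the surrounding 100 kb and divided into 3 classes of equal size, the lowest, middle and top class, with cuts of 31 and 43 ends for experiment 1, of 115 and 134 for experiment 2, and of 63 and 85 for experiment 3. Both ends lay in the top class in 27.9% of the members of experiment 1 against 14.5% expected, a fold of 1.92 (adjusted p = 1.41e-22, exact binomial test). In experiment 3 they did in 30.1% against 18.6%, a fold of 1.62 (adjusted p = 1.73e-38, exact binomial test). In experiment 2 they did in 13.9% against 13.6%, a fold of 1.02 (adjusted p = 0.719, exact binomial test). This call depended on whose PET ends were counted: with those of the other 2 experiments, the fold was 1.59, 1.21 and 1.42 in experiments 1, 2 and 3, and it passed the test in each. Top-class pairs had ratios of 2.79 (2.44 to 3.18), 1.16 (1.03 to 1.29) and 3.19 (2.95 to 3.44) in experiments 1, 2 and 3, and lowest-class pairs had 0.911 (0.693 to 1.17), 1.20 (1.08 to 1.34) and 1.40 (1.22 to 1.60).

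Gene density and PET-end density moved together to different degrees in the experiments. The median number of PET ends in the 100 kb rose from 31 around gene-free ends of the pool to 62 around gene-dense ends in experiment 1, and from 56 to 99 in experiment 3. In experiment 2 it was 119 and 124. From the 10th to the 90th percentile it ran from 91 to 153 in experiment 2, while experiment 1 spanned 23 to 90 and experiment 3 spanned 43 to 115. The part of this narrower range in the fold of experiment 2 was not tested.

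**Figure D2:**
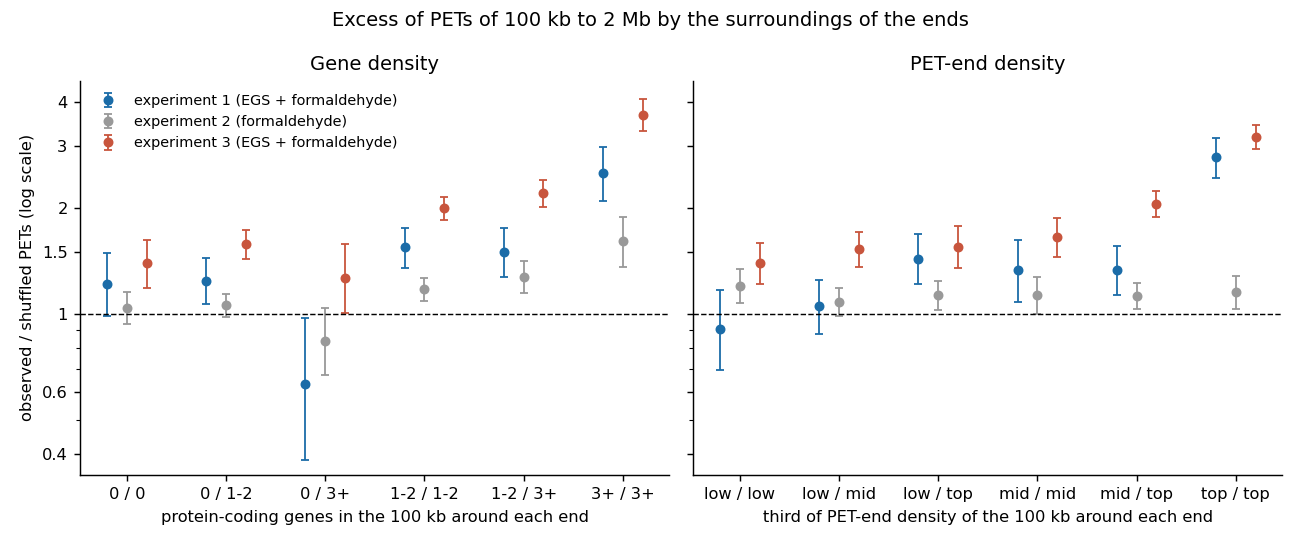
Observed members divided by the mean over shuffled partners (log scale) for the 6 combinations of gene density (left) and of PET-end density (right) at the 2 ends, with exact Poisson 95% intervals. Pairs with 3 or more genes at both ends stand highest in every experiment on the left, and top-class pairs stand highest in experiments 1 and 3 on the right.

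When both were fitted together with distance, gene-dense against gene-free pairs had a rate ratio of 1.07 (0.787 to 1.45), 1.56 (1.29 to 1.89) and 1.79 (1.45 to 2.22) in experiments 1, 2 and 3. The rate ratio of top-class to lowest-class pairs was 2.98 (2.17 to 4.10), 0.935 (0.800 to 1.09) and 1.77 (1.48 to 2.11). So the interval lay above 1 for PET ends alone in experiment 1, for genes alone in experiment 2 and for both in experiment 3. These ratios depended on where the PET ends were counted. With the ends of the other 2 experiments, gene density had 1.48 (1.10 to 2.00), 1.39 (1.12 to 1.72) and 2.41 (1.99 to 2.92), and PET-end density had 1.73 (1.31 to 2.27), 1.17 (0.997 to 1.38) and 1.21 (1.03 to 1.44). The gene-density ratio then had a lower limit above 1 in every experiment. With 50 kb around each end and the experiment's own PET ends, it was 1.85 (1.31 to 2.62) in experiment 1.

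Gene-dense pairs were also counted within a single class of PET-end density, as a description. With both ends in the top class, experiment 1 had 98 members between gene-dense places, a ratio of 3.15 (2.56 to 3.84), and 41 between places of 1 or 2 genes, a ratio of 2.67 (1.92 to 3.62). Experiment 3 had 249 and 161, with ratios of 4.37 (3.84 to 4.95) and 2.98 (2.54 to 3.48). Experiment 2 had 16 and 121, with ratios of 1.74 (0.997 to 2.83) and 1.04 (0.866 to 1.25), and the intervals overlapped in experiments 1 and 2. With both ends in the lowest class, experiment 2 had 27 members between gene-dense places, a ratio of 1.92 (1.27 to 2.80), against 1.12 (0.914 to 1.37) for its 99 between gene-free places. Experiments 1 and 3 had 2 and 5 gene-dense members in that class, with ratios of 1.66 (0.201 to 5.99) and 2.41 (0.781 to 5.61).

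**Figure D3:**
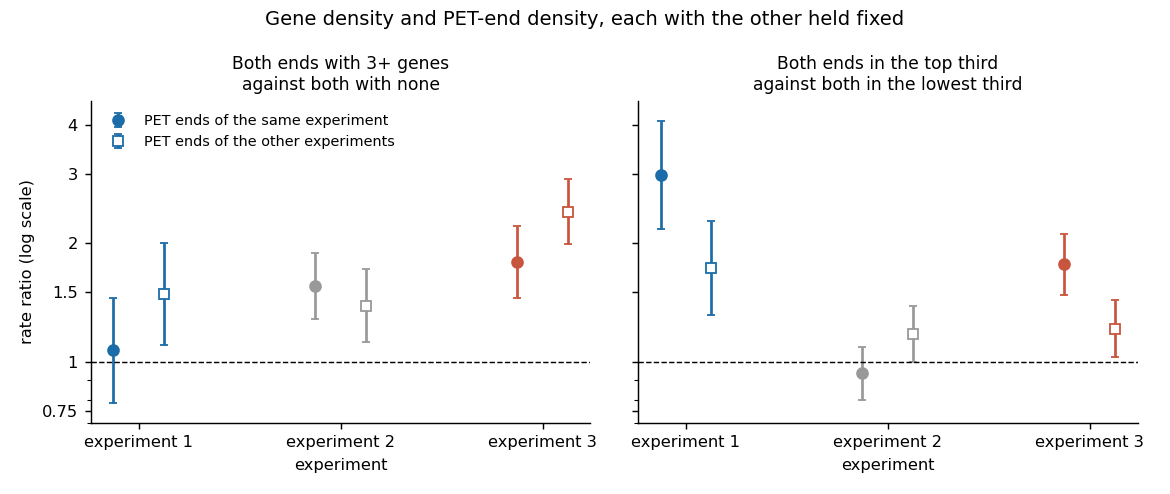
Rate ratios (log scale) from a Poisson regression with gene density, PET-end density and distance together, with Wald 95% intervals, for PET ends of the same experiment (filled circles) and of the other 2 (open squares). In experiment 1 the gene-density ratio moves from 1.07 to 1.48 and the PET-end ratio from 2.98 to 1.73.

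Members with both ends at gene starts had a higher ratio in each experiment than any gene-density or PET-end class above, in a comparison added after seeing the data and given without a test. A start is a protein-coding start position, and an end counts within 2.5 kb of it. Start positions were available for 17492 of the 21887 protein-coding genes. An end at the start of another gene counted only if an available start lay within 2.5 kb. The members outside chromosome 18, which has no starts in the table used here, numbered 795, 2274 and 2161. Both ends lay at starts in 49, 20 and 110 of these, 179 in all. Against shuffled partners these stood at 4.91 (3.63 to 6.50), 2.81 (1.72 to 4.35) and 9.92 (8.16 to 12.0). With 1 end at a start it was 1.80, 1.36 and 2.99, and with neither it was 1.32, 1.11 and 1.72. At 100 to 500 kb, start-to-start members had ratios of 11.6 (7.87 to 16.4), 4.34 (1.88 to 8.56) and 22.9 (17.8 to 29.0). Nearer start-to-start PETs, at 8 to 100 kb, had higher ratios of 65.0, 15.1 and 179. At 2 to 10 Mb the ratios were 1.48 (1.05 to 2.03), 1.32 (0.860 to 1.93) and 1.71 (1.27 to 2.25).

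The order held among pairs with 3 or more genes at both ends. There, start-to-start members had 4.65 (3.07 to 6.77), 3.65 (1.99 to 6.12) and 9.69 (7.39 to 12.5), and members with neither end at a start had 1.68 (1.20 to 2.29), 1.37 (1.08 to 1.70) and 2.83 (2.39 to 3.32). With both ends in the top class of PET-end density, start-to-start members had 6.19 (4.42 to 8.42) in experiment 1 and 10.2 (7.81 to 13.0) in experiment 3, against 2.40 and 2.49 for members with neither end at a start. Experiment 2 did not show the order there: it had 1 start-to-start member, a ratio of 1.17 (0.0295 to 6.50), against 1.23 with 1 end at a start and 1.17 with neither.

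The share of members joining 2 starts was 3.33 times that expected in experiment 1 (2.48 to 4.36), 2.47 times in experiment 2 (1.51 to 3.81) and 5.00 times in experiment 3 (4.13 to 5.99).

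**Figure D4:**
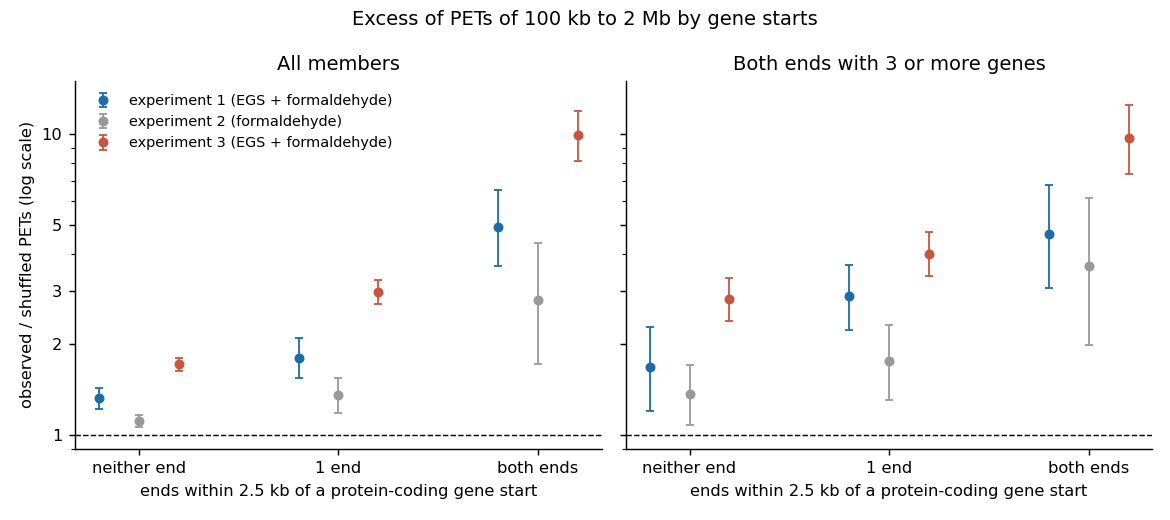
Observed members divided by the mean over shuffled partners (log scale) by whether neither, 1 or both ends lie within 2.5 kb of a gene start, for all members (left) and for those with 3 or more genes around both ends (right), with exact Poisson 95% intervals. Start-to-start members stand highest in each experiment on both sides, up to 9.92 in experiment 3.

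Gene bodies showed the same order more weakly. Members with both ends in protein-coding genes had ratios of 1.76 (1.55 to 2.00), 1.26 (1.16 to 1.37) and 2.39 (2.22 to 2.57) in experiments 1, 2 and 3, and members with both ends outside genes had 1.22 (1.06 to 1.40), 1.04 (0.961 to 1.11) and 1.60 (1.46 to 1.75). In 2429 genes longer than 100 kb, both ends of a member lay in the same gene in 16, 62 and 80 cases. Shuffled partners gave 11.2, 56.6 and 21.9, so only experiment 3 had an excess beyond counting error, at 3.65 (2.89 to 4.54). Mob3b, a gene of 208 kb (chr4:34949074-35157524) that was picked from these genes after its values were seen, held 3 such members, all in experiment 3, against 0.00349 expected there.

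Gene-rich chromosomes tended to have more excess, but their order differed between experiments. Over all experiments the ratio ran from 1.10 (0.935 to 1.28) on chromosome 16 to 1.93 (1.67 to 2.22) on chromosome 19, which was followed by X at 1.79, 11 at 1.71 and 17 at 1.67. X, with few genes for its length at 5.66 per Mb, stood out against this order and had few members, 71 against 39.6. Across 20 chromosomes the ratio and the protein-coding genes per Mb had a Spearman rho of 0.623 and a Pearson r of 0.569, given as a description, since chromosomes share libraries and depth. By experiment, rho was 0.573, 0.444 and 0.526 and r was 0.596, 0.349 and 0.344. The highest ratio was on chromosome 11 in experiment 1, at 2.47 (1.97 to 3.06), on chromosome 5 in experiment 2, at 1.35 (1.15 to 1.57), and on chromosome 19 in experiment 3, at 3.04 (2.48 to 3.69). Chromosome 5 had the lowest in experiment 1, at 0.834 (0.554 to 1.21). The lower limit was above 1 on 12, 5 and 20 of the 20 chromosomes in experiments 1, 2 and 3. The Y chromosome held 0 members against 0.147 expected.

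At single places the members were sparse. All pairs of 100 kb bins on one chromosome numbered 17300891, and 43 of them, or 0.000249%, passed the call, which asked for 3 PETs or more and an adjusted p below 0.05 in a one-sided exact Poisson test. All 43 joined a bin with itself (39) or with its neighbour (4), and PETs of any length over 8 kb count in these. Members were among the PETs of 3 of the 4 neighbouring pairs. The pair around Errfi1, chr4:150700000-150799999 with chr4:150800000-150899999, had 6 PETs, 5 of them members, against 0.0792 (adjusted p = 0.000369, exact Poisson test). The pair of Brd3 and Wdr5 with Rxra had 7, 2 of them members, and the pair of Sdhc with Apoa2 and Nr1i3 had 5, 1 of them a member. Of 452666 pairs of bins 2 to 19 bins apart, 0 (0%) were called, 4770 had an unadjusted p under 0.05, which a single PET usually gives, and the smallest adjusted p was 0.109. Of the 4809 such pairs that held a PET, 66 held 2 and 5 held 3. PETs of 2 experiments met in 33 of these pairs, against 11.9 from the shuffled means, and of all 3 experiments in 0. The shuffled means leave out the excess that each experiment had at these distances. The 33 therefore cannot tell places that recur from that general excess.

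The 3 pairs with the smallest p among those with 3 PETs lay in genic stretches. On chromosome 5, chr5:33400000-33499999 (Uvssa, Nkx1-1) and chr5:33600000-33699999 (Fam53a, Slbp, Tmem129, Tacc3) were joined by 2 PETs of experiment 2 and 1 of experiment 3, against 0.0145 expected (adjusted p = 0.109, exact Poisson test). On chromosome 11, a bin with Psme3 and Aoc2 was joined to a bin with Gpatch8 by the same numbers. That bin also holds G6pc and Becn1, but no end of these PETs lay in either gene. On chromosome 2, a bin with Inpp5e was joined to a bin of the Surf genes by 2 PETs of experiment 1, 2 bp apart, and 1 of experiment 2. Those of experiment 1 ran from Inpp5e to Surf2 and Surf4. The PET of experiment 2 ran from a place outside protein-coding genes to Stkld1 and Rexo4. The other 2 pairs shared the bin chr2:98600000-98699999, which is very dense in PET ends, and had adjusted p = 1 (exact Poisson test).

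With 50 kb bins, the contact of Errfi1 was the 1 pair called at 100 kb to 2 Mb. Its 100 kb bins are neighbours, so the pairs 2 to 19 bins apart do not hold it. Errfi1 encodes an inhibitor of the EGF receptor. The bin chr4:150850000-150899999, with Errfi1 and Park7, was joined to chr4:150700000-150749999, which held no protein-coding gene, by 2 PETs of experiment 1 and 3 of experiment 3, against 0.0449 expected (adjusted p = 0.0102, exact Poisson test). On either side, 4 of these PETs ended within the same 20 kb. They ran from 150704749 to 150856466 and from 150710031 to 150855038 in experiment 3, and from 150706507 to 150856753 and from 150706537 to 150851293 in experiment 1. Both linkers were present in each experiment. These 20 kb places were chosen after their values were seen, and shuffled partners gave 0.0109 in experiment 1, 0.000903 in experiment 2, which had 0 PETs, and 0.00138 in experiment 3.

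The 1 Mb windows gathered more members. Of 2616 windows, 14 were called (0.535%, adjusted p under 0.05, one-sided exact Poisson test), and each of the 14 had members in at least 2 experiments. Windows held 1770 members with both ends inside, against 819.7 expected, and 1491 held none. The 14 called had a median of 31.5 protein-coding genes, from 6 to 52, against 6 over all windows. Together they held 27, 16 and 43 members of experiments 1, 2 and 3, against 1.82, 2.46 and 2.91 expected. The call used these same members summed over experiments, so these numbers describe the called windows and cannot show that the excess repeats. Windows were called against chance pairing and not against the excess of all windows. The part of the expected numbers in the contrast of gene numbers was not tested. Without experiment 1, 5 windows were called, and without experiment 3, 4 were. Of the 10 windows named next, 7 lost the call without experiment 1, 4 without experiment 2 and 6 without experiment 3, and the Fasn window kept it under each alternative run. Without the 10 kb bins densest in PET ends (0.1% of them), 3 lost it, those of Errfi1, Hagh and Kcnn3, with ratios of 9.27, 6.41 and 7.76.

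The window with the smallest p was chr11:120000000-120999999, with 47 genes led by Fasn, the fatty acid synthase. It held 5 members of experiment 1, 1 of experiment 2 and 7 of experiment 3, against 1.01 in all (adjusted p = 1.87e-07, exact Poisson test). The Fasn start held 2 of their ends, 1 from the Nploc4 start 386 kb away and 1 from Baiap2 and Aatk 819 kb away, both in experiment 3. Others joined P4hb, a protein disulfide isomerase, Sirt7, a sirtuin deacetylase, and Mafg, a small Maf factor, to the stretch of Fasn, Dus1l and Ccdc57.

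The window chr4:150000000-150999999 around Errfi1 held 5, 1 and 4 members against 0.779 (adjusted p = 1.46e-05, exact Poisson test). Beside the Errfi1 contacts above, 1 PET joined the start of Eno1, a glycolytic enolase, to that of Errfi1 at 617 kb. In chr17:24000000-24999999, with 50 genes, 3, 0 and 5 members stood against 0.787 (adjusted p = 0.00158, exact Poisson test). There the start of Rps2, a protein of the small ribosomal subunit, met that of Spsb3 in 2 PETs of experiment 1, with different positions at both ends. In 1 PET the Rps2 end also lay at the start of Rnf151. In the other the Spsb3 end also lay at the start of Nubp2. The starts of Hagh and Fahd1, which lie together, met those of Tbc1d24 and Traf7 in experiment 3.

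The other 7 windows held 4 to 6 members each, against 0.220 to 0.600 expected, with adjusted p from 0.0157 to 0.0215 (exact Poisson test). In chr5:137000000-137999999, the starts of Zcwpw1, a histone reader, and of Cyp3a13, a cytochrome P450, met in 2 PETs of experiment 3, one of each linker. In chr3:89000000-89999999, a chain of single PETs joined Fdps, of the cholesterol pathway, to the ephrin gene Efna1, Efna1 to Zbtb7b, and Zbtb7b to the RNA editor Adar. In chr4:118000000-118999999, 2 of the 5 PETs joined the starts of Kdm4a and Ptprf with ends only 2 bp apart, and in chr2:26000000-26999999 the 2 between Inpp5e and the Surf genes were such a pair. Neither window stayed past the threshold when PETs within 10 bp were taken as 1. The window chr13:60000000-60999999 had 4 of its 5 members at Dapk1, a death-associated kinase, and the remaining 2 were led by Pdzd2 and Arid3a.

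**Figure D5:**
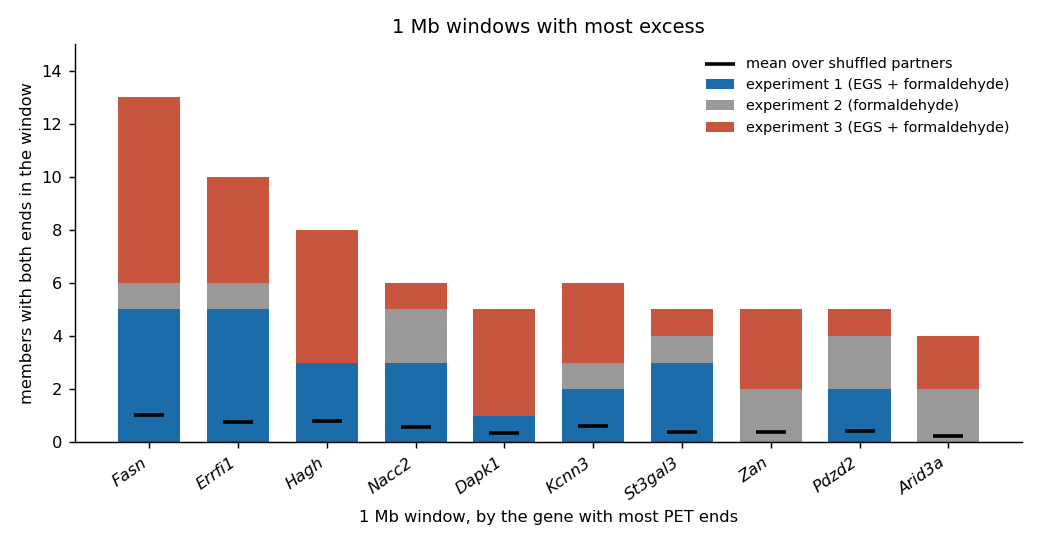
Members with both ends in a 1 Mb window, stacked by experiment, for the 10 windows with the smallest p and members in at least 2 experiments, named by the gene with most PET ends; black bars mark the mean over shuffled partners. The Fasn window holds 13 members against 1.01 and the Errfi1 window 10 against 0.779.

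Single genes had few member ends. Of 21887 genes with 2.5 kb either side, 4604 held a member end and 104 held one in every experiment. The 10 with most ends in all experiments were long genes: Fhit with 16 ends against 4.93, Lrmda with 10 against 4.62, Lrrc4c with 10 against 7.40, Prkce with 10 against 1.96, Gse1 with 9 against 1.61, Camta1 with 8 against 3.87, Grid1 with 8 against 2.85, Asic2 with 7 against 4.46, Csmd1 with 7 against 6.44 and Ctnnd2 with 7 against 3.22. Fhit, which spans 1612 kb in a well-known fragile site, held both ends of 6 members against 0.942, and 2 of its 4 ends in experiment 1 came from PETs 2 bp apart. Prkce, a protein kinase C, and Gse1 had the highest ratios of the 10, at 5.11 and 5.60.

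Among genes under 100 kb, Epas1, the hypoxia-responsive factor HIF-2α, was followed up after its values were seen. Of its 5 members, 4 ran from the body of Prkce to within 2.5 kb of the lower end of Epas1 (chr17:86751364-86756364). They were 165 to 363 kb long, 1 in experiment 1 and 3 in experiment 3, against 0.00397 and 0.00549 expected, with 0 in experiment 2 against 0.00306.

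Liver and clock genes were listed to see whether members reached them. The 34 liver genes, of secreted proteins, metabolism and hepatocyte factors, had 25 member ends against 14.9, a ratio of 1.68 (1.09 to 2.48), and 16 of them had an end. The 20 clock genes had 21 against 7.62, a ratio of 2.76 (1.71 to 4.21), and 11 had an end. All protein-coding genes together had 6693 against 4069, a ratio of 1.64, so the liver list stood close to all genes. By experiment the clock genes had 4, 7 and 10 ends against 1.34, 3.52 and 2.76, with ratios of 2.99, 1.99 and 3.62. All protein-coding genes had ratios of 1.69, 1.21 and 2.30. Whether the clock list differs from all genes was not tested. Genes with 3 or more ends were Alb, which encodes albumin, with 4 against 1.26, Usp2, a rhythmic deubiquitinase, with 4 against 0.215, the nuclear receptor Rora with 5 against 2.88, and the endothelial receptor Stab2 with 3 against 0.600.

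Usp2 had ends in 1 PET of experiment 1, 1 of experiment 2 and 2 of experiment 3, which ran 227 to 1430 kb to Hinfp, Dscaml1, Bcl9l and an intergenic place. The clock activator Arntl, which encodes BMAL1, had 2 PETs of experiment 3, from its start to Psma1 and to Insc. The transcription factor Tef met the start of Ep300, a histone acetyltransferase, in 1 PET of experiment 2, 226 kb away. Per1, Per2, Cry1, Clock and Dbp, among the 9 listed clock genes without a member, had 0 member ends, against 0.181 to 0.361 expected, where 0 lies within counting error. Cry2 and Per3, with 0.191 and 0.244 expected, had 1 and 2 ends.

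Markers of liver cell types were checked on all PETs. The density of PET ends over 6 hepatocyte markers had a median of 67.4, 8.35 and 11.5 times the genome mean in experiments 1, 2 and 3. Markers of Kupffer, endothelial, stellate and bile duct cells and of red cell precursors had medians from 0.493 to 1.88. Single ones reached 5.71, at a bile duct marker in experiment 1. The 5 endothelial markers held 5 ends against 1.20, a ratio of 4.17 (1.35 to 9.73), of which 3 lay at Stab2. Hepatocyte markers held 5 against 3.20, a ratio of 1.56 (0.507 to 3.65), and stellate markers 2 against 2.14. Kupffer, cholangiocyte and erythroid markers held 0 member ends, against 0.550, 0.342 and 0.102 expected. The Serpina cluster of protease inhibitors made by hepatocytes held 3 members with both ends inside, all of experiment 1, against 0.369 expected over all experiments. The Mup and Cyp2c clusters held 1 each, against 0.0180 and 0.0614 expected. Cyp2d, Cyp3a, Ugt2, Hist1, Pcdh and the Hox clusters held 0. At most 0.201 were expected in any of these, at Pcdh, so the counts of 0 are not informative. The Hoxd span of 96.9 kb is too short to hold a member at all. The olfactory receptor clusters, silent in liver, held 9 against 8.21 (ratio 1.10, 0.501 to 2.08).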

How the data were processed

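The authors deposited 1 table of PETs, without a header, of unit other: each row names an experiment and the linker of either read, and then gives where the ends lie and how far apart. The submitters' processing notes name Bowtie2 and the mouse build mm10, without a version or role. All libraries of an experiment are together in the table, and no library or time point is named.

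Nuclear PETs, without an end in mitochondrial DNA, were used. Chance pairing was the exact mean over all shuffles of read-2 ends among PETs of the same experiment and linker, leaving out PETs up to 8 kb apart: the number of read-1 and read-2 end pairs in a class divided by the number of PETs. Genes were the 21887 protein-coding genes of RefSeq's annotation on GRCm38.p6, the same assembly as mm10, and starts were 21263 positions of 17492 of these genes, without chromosome 18. Densities were counted in the 100 kb centred on each end, the end itself left out. Shares were tested with two-sided exact binomial tests, adjusted by Benjamini-Hochberg over 3 experiments. Bin pairs and windows were tested with one-sided exact Poisson tests, adjusted over all pairs or windows. Both treat each PET as independent. Gene and PET-end density were fitted together by Poisson regression (statsmodels 0.14.6) with the expected number as offset. SciPy 1.17.1, NumPy 2.4.6, pandas 2.3.3 and Python 3.11.15 were used, and the calculations were tested on simulated data.

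Windows named are the 10 with the smallest p among those with members in at least 2 experiments. Genes named are the 10 with most member ends among those with 1 or more in every experiment, and listed genes with 3 or more ends. Other genes, among them Mob3b, Epas1, Arntl and Tef, and bin pairs that were not called were named after their values were seen. Members, lists and tests were chosen with earlier results of these data known. The alternatives tried are in the closing section, and those on gene starts and on the joint fit were added after seeing the data.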

Additional observations from a re-analysis of the deposited data

Results flagged for a closer look

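The link between the excess and the surroundings of the ends differed between experiments when gene density and PET-end density were fitted together. The rate ratio for PET-end density was 3.19 times higher in experiment 1 than in experiment 2 (2.24 to 4.55) and 1.69 times higher in experiment 1 than in experiment 3 (1.17 to 2.43). That of experiment 2 was 0.529 of that of experiment 3 (0.418 to 0.669). The rate ratio for gene density in experiment 1 was 0.597 of that in experiment 3 (0.411 to 0.867). These Wald tests of the difference passed Benjamini-Hochberg adjustment over 6 comparisons, and the other 2 did not. The Pearson chi-square per degree of freedom of the fits was 1.14, 1.19 and 1.49 in experiments 1, 2 and 3, above the 1 that the Wald intervals assume. These differences rest on each experiment's own PET ends. With PET ends of the other 2 experiments, the rate ratio for PET-end density in experiment 2 was 0.966 of that in experiment 3 (0.764 to 1.22), that of experiment 1 was 1.47 times that of experiment 2 (1.07 to 2.03) and 1.42 times that of experiment 3 (1.03 to 1.96), and the gene-density ratio in experiment 1 was 0.617 of that in experiment 3 (0.432 to 0.879). With 50 kb around each end, experiments 1 and 3 differed by 1.15 for PET-end density and by 0.986 for gene density, and with 200 kb by 1.16 and 0.759, and neither passed. The difference between experiments 1 and 2 in PET-end density passed in all 8 alternatives run. Crosslinking and experiment cannot be told apart in the differences that involve experiment 2.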

How the results depend on the processing

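Of 245 values of 30 results under the alternatives, 207 kept their direction and their side of the threshold, or stayed within their counting interval (for counts, within 1.5 times). The fold for PET-end density in experiment 2 turned below 1 with 50 kb around each end (0.979), with 200 kb (0.962) and with 5 density classes (0.880), and passed the threshold with PET ends of the other experiments (1.21); the joint rate ratio then turned from below 1 to 1.17. The joint rate ratio for gene density in experiment 1 rose past the threshold with 50 kb around each end (1.85) and with PET ends of the other experiments (1.48). The gene-density fold of experiment 2 fell short of the threshold at 500 kb to 2 Mb (1.19). The fold for gene starts moved to 7.84 in experiment 3 with 1 kb around a start, and to 2.40 in experiment 1 and 3.50 in experiment 3 with 5 kb. Called windows fell from 14 to 5 without experiment 1 and to 4 without experiment 3, and 13 were called without experiment 2. With 50 kb bins, 1 bin pair was called in place of 0, the Errfi1 contact, which with 100 kb bins is called as a pair of neighbours. The cause of these changes was not tested. No paired analysis was possible because the table names no library, so the replicate numbers of experiment 1 could not be used. Single places hold few PETs: of the bin pairs 2 to 19 bins apart, 5 held 3.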
